A study of Mus musculus with 4 samples.

Results

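The galectins are secreted and cytosolic lectins that bind β-galactoside sugars on glycoproteins and glycolipids. The genes described here are Lgals1, Lgals2, Lgals3, Lgals4, Lgals8 and Lgals9, together with Lgals3bp, which encodes a secreted glycoprotein ligand of galectin-3. They were listed by gene symbol, and all 7 listed genes were found among the 19938 genes with a probe set of a single symbol. Each had 1 such probe set.

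Expression was profiled on a whole-transcript Affymetrix array, with 1 array for each of 4 cultures of C57BL/6 mouse cells. The cultures were mesenchymal stem cells (MSC) grown with basic fibroblast growth factor (bFGF) at 1 ng/ml, MSC grown without bFGF, osteoblasts and embryonic stem (ES) cells. MSC were the plastic-adherent cells of marrow flushed from thigh and shin bones, and the labels give no sorting step. Osteoblasts came from enzyme digests of the skull bones of newborn mice, pooled before plating, and grew in DMEM, whereas both MSC cultures grew in Coon's modified F12, so medium and cell source cannot be told apart. All 3 of these cultures had serum; the labels give no growth conditions for the ES cells, no animal ages beyond newborn and no number of animals. The growth text for MSC without bFGF also speaks of a standard medium, a term that the text for MSC with bFGF uses for medium holding bFGF, and the grouping follows the sample labels. The series was made to compare effects of bFGF on marrow MSC. With 1 array per group there was no replicate check and no test between groups, and the number of arrays limits the precision.

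Galectins fall into 3 structural kinds. Galectin-1 and galectin-2 consist of a single carbohydrate-recognition domain, galectin-3 joins such a domain to a long repetitive tail through which it oligomerises, and galectins 4, 8 and 9 are tandem-repeat proteins with a pair of such domains. Outside the cell they cross-link glycans on receptors and matrix. Inside it, some of them bind glycans exposed on damaged vesicles. Galectin-3 was first described as the macrophage surface antigen Mac-2, galectin-1 is abundant in mesenchymal cells, and galectin-2 and galectin-4 are best known from the gut epithelium.

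Levels below are log2 values from RMA, which removes background, forces each array to a common distribution and combines probes into 1 value per probe set. The floor of an array is the median over its probe sets with a single gene symbol, which was 6.32 in MSC with bFGF, 6.29 in MSC without bFGF, 6.46 in osteoblasts and 6.46 in ES cells. A gene entered a comparison if the higher of its 2 levels lay above that array's floor, and a log2 difference of at least 1 (2-fold) counted as a difference. As a measurement yardstick, where a gene had several probe sets, their differences had an SD of 0.19 between the MSC arrays and of 0.26 to 0.31 in the other comparisons. It does not measure variation between cultures. Neighbouring levels closer than 2 of these SDs are described as not separated.

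The arrays were set against markers of their labelled cell types and of other cell types. Of 10 ES cell markers 7 lay above the floor in the ES cell array, against at most 1 in each other array. Of 7 measured osteoblast markers only Dlx5 did so in the array labelled osteoblasts, where the mineralization genes Alpl (6.03) and Ibsp (4.53) lay under it. Of 9 measured MSC surface markers 6 lay above the floor in MSC with bFGF, 4 in MSC without bFGF, 8 in osteoblasts and 7 in ES cells. Of 13 measured fibroblast and matrix markers 9 did so in each MSC culture, 12 in osteoblasts and 11 in ES cells. Their median level was 6.94 in MSC with bFGF, 7.85 in MSC without bFGF, 9.99 in osteoblasts and 8.67 in ES cells. Of 26 macrophage markers 21 lay above the floor in MSC with bFGF, 13 in MSC without bFGF, 24 in osteoblasts and 17 in ES cells. Their levels, put on a linear scale and summed, came to 21383, 3429, 58210 and 6680 in the same order of cultures. RMA gives no level of 0, but Cd163 and Clec7a were under the floor in all 4 arrays. No neutrophil or lymphocyte marker measured, of 10 and 8, lay above the floor in any array. The osteoblast array is named by its label below.

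Of the 7 genes, Lgals3, Lgals9 and Lgals3bp were 2-fold or more higher in MSC with bFGF than in MSC without it, and 0 were lower. Lgals1 and Lgals8 were above the floor in all 4 arrays and differed little between the MSC arrays. Lgals2 and Lgals4 were under the floor in all 4 arrays. The background for this comparison was 4.09% of 10483 genes higher and 0.467% lower at 2-fold. The median difference over all 7 galectin-system genes was 0.42, and over all genes without a floor it was -0.06. That 0.42 is the value of Lgals4, which was under the floor, so it describes no general shift of the 7. Above the floor, Lgals1 and Lgals8 differed by -0.16 and -0.04.

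**Figure D1:**
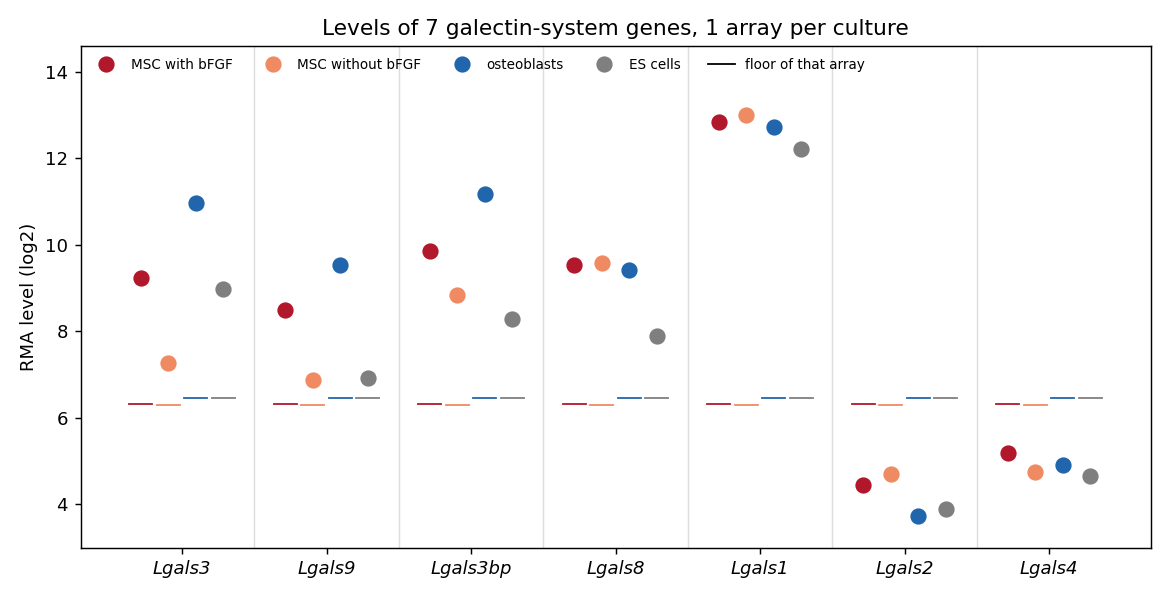
RMA levels on a log2 scale (vertical axis) of the 7 genes in MSC with bFGF, MSC without bFGF, osteoblasts and ES cells, with 1 point for the single array of each culture and a short line for that array's floor. Lgals3, Lgals9 and Lgals3bp are highest in osteoblasts and higher in MSC with bFGF than without, Lgals8 is lower in ES cells only, and Lgals2 and Lgals4 lie under every floor.

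Lgals3, the chimera-type galectin, had a level of 9.25 in MSC with bFGF, 7.28 in MSC without bFGF, 10.96 in osteoblasts and 8.97 in ES cells. It ranged more widely over the arrays, by 3.69, than any other of the 7 genes, and MSC without bFGF had the lowest level. The level with bFGF was 1.97 above that without, a 3.91-fold difference, and 1.55% of genes above the floor had a larger one. Osteoblasts were higher than either MSC culture: the difference was -1.72 for MSC with bFGF minus osteoblasts and -3.69, or 12.9-fold lower, for MSC without bFGF minus osteoblasts. The levels in MSC with bFGF and in ES cells, 0.28 apart, were not separated. Macrophage markers had a list median of 2.69 for MSC with minus without bFGF. There 20 of the 26, 21 of them above the floor, passed 2-fold upward, beside 4.09% of all genes. Their medians were -1.26 and -4.02 for MSC with and without bFGF minus osteoblasts. For MSC with bFGF minus ES cells, where Lgals3 was not separated, their median was 1.88. Of 22 macrophage markers above the floor there 18 were higher and 2 lower, beside 11.3% and 10.6% of all genes. Fibroblast and matrix markers also lay below their osteoblast levels, with 12 of 13 above the floor in each comparison. In MSC with bFGF 11 were lower, beside 9.71% of all genes, with a list median of -2.73. In MSC without bFGF 10 were lower, beside 13.3%, with a list median of -2.30. The part of either list in the galectin differences was not tested. In bulk cultures such as these, fewer cells of a type and less RNA per cell cannot be told apart.

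Lgals9 encodes a tandem-repeat galectin that interferons induce and that binds the inhibitory receptor Tim-3. Its level was 8.50 in MSC with bFGF, 6.88 in MSC without bFGF, 9.53 in osteoblasts and 6.93 in ES cells. MSC without bFGF and ES cells, at 0.06 apart, were not separated, and both lay near their floors of 6.29 and 6.46. MSC with bFGF stood 1.62 above MSC without it, or 3.08-fold, and 2.20% of genes above the floor had a larger difference. Against osteoblasts Lgals9 differed by -1.03 in MSC with bFGF, just past 2-fold, and by -2.65 in MSC without bFGF.

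Lgals3bp, the galectin-3 ligand, had levels of 9.87 in MSC with bFGF, 8.85 in MSC without bFGF, 11.18 in osteoblasts and 8.28 in ES cells. Its difference of 1.02 between MSC with and without bFGF, 2.03-fold, was the smallest of the 3 and only just passed 2-fold. Its largest was 2.90 for osteoblasts minus ES cells, or 7.44-fold, which 1.18% of genes above the floor exceeded. MSC without bFGF and ES cells, 0.57 apart, were not separated.

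The profiles of Lgals9 and Lgals3bp over the 4 arrays lay closer to each other than those of any other pair of the 7 genes that reached the floor. After each gene was centred on its own mean, their root mean square difference was 0.25, against 0.63 for Lgals3 and Lgals9 and 0.81 for Lgals3 and Lgals3bp. Lgals3 was set apart from both by its higher level in ES cells relative to MSC without bFGF. In that comparison it differed by -1.69 in MSC without bFGF minus ES cells, whereas Lgals9 differed by -0.06 and Lgals3bp by 0.57.

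All 3 genes stepped down by 2-fold or more from osteoblasts to MSC with bFGF and again to MSC without bFGF, a pattern singled out after the values were seen. Of 9964 genes above the floor in osteoblasts 1.44% did so. Among the lists, 12 of 24 macrophage markers above that floor did, including Cd68, Tyrobp, Cybb, Msr1 and the complement C1q genes. So did Trem2, 1 of 29 galectin partners, and Gcnt1, 1 of 19 glycan enzymes. Of 18 interferon response genes and of 8 sialyltransferases 0 did. Counts of 0 or 1 in lists this short are not distinguished from the 1.44% of all genes. By sign alone, 18 of 20 measured interferon genes were higher in MSC with than without bFGF. Against osteoblasts 17 of them were lower in MSC with bFGF and 20 in MSC without it. The median difference over all genes without a floor was -0.06, -0.07 and 0.03 in these comparisons, in that order. These sign counts include Mx1 and Mx2, which were under the floor in all 4 arrays. They also include differences within the yardstick, such as 0.07 for Ifit3 between the MSC arrays.

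**Figure D2:**
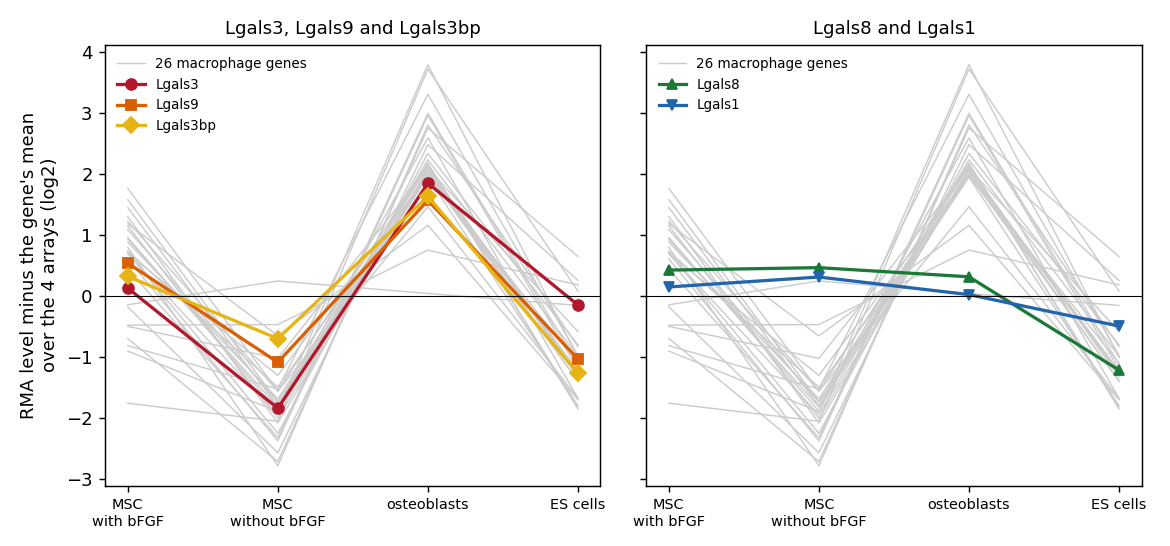
Levels on a log2 scale after subtraction of each gene's mean over the 4 arrays (vertical axis), for Lgals3, Lgals9 and Lgals3bp (left) and for Lgals8 and Lgals1 (right), with the 26 macrophage markers as grey lines. Lines join the values of 1 gene and imply no order of cultures; the 3 genes on the left lie highest in osteoblasts, as most grey lines do, and the 2 on the right do not.

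The stretches around the RefSeq starts of these 3 genes are shown because all 3 had the step pattern above. Lgals3 differed from the others in its ES cell level. Each runs from 250 bases before the start to 30 bases after it, in the direction of the gene (5′ to 3′), from RefSeq's GRCm38.p6 assembly. Windows of 300 bases, from 250 before to 50 after the start, were found for 6 of the 7 genes, and Lgals1 is named only. Capitals mark matches on either strand to letter patterns searched after the levels had been seen: the core of the interferon-stimulated response element (ISRE; GAAA and GAAA with any 2 bases between), the PU box GAGGAA bound by the myeloid factor PU.1, the AP-1 site TGANTCA and the GC box GGGCGG.
Lgals3 (chr14:47373610-47373889, plus strand): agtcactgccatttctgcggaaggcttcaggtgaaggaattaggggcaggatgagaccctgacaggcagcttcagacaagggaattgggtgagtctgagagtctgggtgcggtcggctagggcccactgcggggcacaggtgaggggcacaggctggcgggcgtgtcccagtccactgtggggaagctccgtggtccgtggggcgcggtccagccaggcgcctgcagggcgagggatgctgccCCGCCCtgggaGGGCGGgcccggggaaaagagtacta
Lgals9 (chr11:78984895-78985174, minus strand): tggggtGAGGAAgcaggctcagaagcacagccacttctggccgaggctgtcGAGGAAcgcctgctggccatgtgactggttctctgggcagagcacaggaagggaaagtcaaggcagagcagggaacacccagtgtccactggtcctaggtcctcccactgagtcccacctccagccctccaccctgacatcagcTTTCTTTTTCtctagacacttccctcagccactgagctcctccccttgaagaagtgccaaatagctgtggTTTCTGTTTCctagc
Lgals3bp (chr11:118401930-118402209, minus strand): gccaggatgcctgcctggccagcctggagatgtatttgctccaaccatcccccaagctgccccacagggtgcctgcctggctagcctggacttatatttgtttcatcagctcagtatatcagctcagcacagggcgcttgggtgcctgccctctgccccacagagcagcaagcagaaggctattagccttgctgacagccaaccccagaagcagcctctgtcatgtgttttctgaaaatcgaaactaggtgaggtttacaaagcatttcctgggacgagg

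The Lgals9 window held 2 ISRE cores, both on the strand opposite to the gene, at -55 to -46 and at 16 to 25 counted from the start. It also held 2 PU boxes, at -244 to -239 and at -199 to -194. Neither pattern overlaps the other there. Of 32851 windows of this length in the RefSeq table, 3.44% held an ISRE core and 28.3% a PU box. The Lgals3 window held 2 GC boxes, at -7 to -2 on the opposite strand and at 5 to 10 on the gene's own, a pattern found in 35.7% of windows. The Lgals3bp window held 1 PU box, at 33 to 38, beyond the stretch shown, so its line has no capitals. The window of Lgals4, which was under the floor in all 4 arrays, held a PU box at -238 to -233 on the opposite strand and a GC box at 30 to 35. The AP-1 letters, present in 7.81% of windows, were in 0 of the 6 windows, and the Lgals8 and Lgals2 windows held none of the 4 patterns. A match describes letters in a window and shows no binding.

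Lgals8 encodes a tandem-repeat galectin that, in human cells, marks damaged vesicles for the autophagy receptor NDP52. Its levels were 9.54 in MSC with bFGF, 9.58 in MSC without bFGF, 9.43 in osteoblasts and 7.90 in ES cells. The 3 adherent skeletal cultures lay within 0.15 of each other and were not separated, and ES cells were lower than each of them. The differences from ES cells were 1.64 for MSC with bFGF, 1.68 for MSC without bFGF and 1.53 for osteoblasts, or 3.11-fold, 3.20-fold and 2.88-fold. Its 2 MSC levels differed by -0.04, and the median of the macrophage list in that comparison was 2.69. The part of that list in the galectin differences was not tested. Calcoco2, the mouse gene for NDP52, was under the floor in all 4 arrays, with 5.00 in MSC with bFGF and 5.18 in MSC without it.

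Lgals1, the prototype galectin of mesenchymal cells, was near the top of the scale in every array, with highest levels of 14.28 in MSC with bFGF, 14.01 in MSC without bFGF, 14.09 in osteoblasts and 14.16 in ES cells. It stood at 12.85 in MSC with bFGF, 13.01 in MSC without bFGF, 12.72 in osteoblasts and 12.21 in ES cells. These levels spanned 0.80, and neighbours in that order were not separated. The ends of the order were: MSC with and without bFGF exceeded ES cells by 0.64 and 0.80, under 2-fold. The difference of -0.16 for MSC with minus without bFGF was smaller than 2 yardstick SDs, which came to 0.38.

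Lgals2 and Lgals4, the gut galectins, lay under the floor throughout, and their values are given as a description. Lgals2 ran from 3.72 in osteoblasts to 4.71 in MSC without bFGF, with 4.46 in MSC with bFGF. Lgals4 ran from 4.66 in ES cells to 5.18 in MSC with bFGF, with 4.76 in MSC without bFGF. Lgals6, a close copy of Lgals4 in some mouse strains, had no probe set of a single symbol. The Lgals4 probe set also lists a Lgals6 transcript, so whether its value covers a second gene was not settled. Other relatives on the array gave little more. Lgals7 and Lgals12, galectins of stratified epithelium and of fat, were under the floor in all 4 arrays, with levels from 5.71 to 6.17 and from 5.70 to 5.84. Grifin, a lens protein, reached the floor in MSC without bFGF alone, at 6.54. The galectin-related gene Lgalsl was above it everywhere, at 8.48 in MSC with bFGF, 8.71 in MSC without bFGF, 8.64 in osteoblasts and 9.12 in ES cells. Its order differed from that of Lgals3, with ES cells highest, and no pair of arrays reached 2-fold.

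Over the remaining comparisons the same 5 genes above the floor accounted for every count. In MSC with bFGF minus osteoblasts 0 were higher and 3 lower (Lgals3, Lgals9 and Lgals3bp), against 7.5% and 9.71% of 10798 genes. In MSC without bFGF minus osteoblasts the counts were again 0 and 3, of the same genes, against 8.17% and 13.3% of 10973 genes. In MSC with bFGF minus ES cells 3 were higher (Lgals8, Lgals9 and Lgals3bp) and 0 lower, against 11.3% and 10.6% of 10932 genes. In MSC without bFGF minus ES cells only Lgals8 was higher and only Lgals3 lower, against 10.4% and 11.8% of 10977 genes. In osteoblasts minus ES cells 4 were higher (Lgals3, Lgals8, Lgals9 and Lgals3bp) and 0 lower, against 12.3% and 8.83% of 10927 genes. Across the genes that entered, the median difference was 0.12 in MSC with bFGF minus ES cells and at most 0.10 in size elsewhere. These 6 comparisons draw on 4 arrays and share them, so their counts are not independent of each other.

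**Figure D3:**
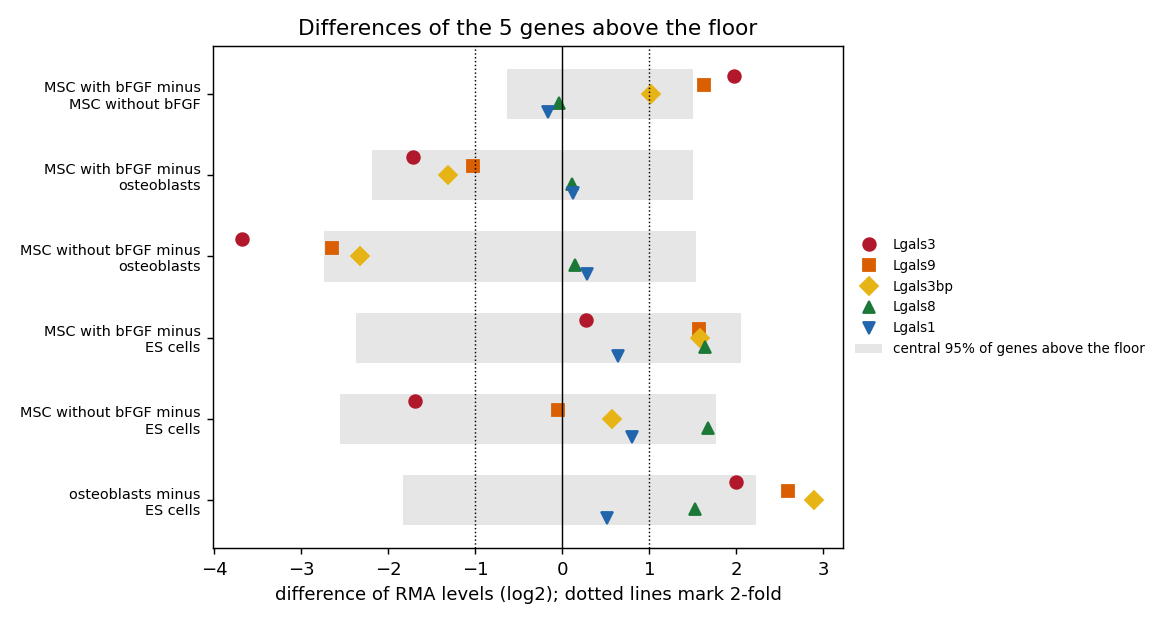
Log2 differences (horizontal axis) of Lgals3, Lgals9, Lgals3bp, Lgals8 and Lgals1 in the 6 comparisons, with dotted lines at 2-fold and a grey bar over the central 95% of all genes above the floor. Lgals3 and Lgals9 lie above the bar for MSC with minus without bFGF, Lgals3 lies below it for MSC without bFGF minus osteoblasts, and Lgals9 and Lgals3bp lie above it for osteoblasts minus ES cells.

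Genes with profiles most like these were taken as those with the smallest root mean square difference of centred log2 levels over the 4 arrays, among 11228 genes above the floor in at least 1 array. For Lgals3 they were Gm2a, a lysosomal activator of ganglioside breakdown (0.07), the amino acid transporter Slc7a8 (0.08), the cholesterol exporter Abca1 (0.12) and Lipo3 (0.14). For Lgals9 they were the myeloid inhibitory receptor Cd200r1 (0.07), the lysosomal acid lipase Lipa (0.10), the myeloid lipid receptor Trem2 (0.11) and AB124611 (0.12). For Lgals3bp they were the ETS factor Fli1 (0.07), the interferon-induced gene Rtp4 (0.15), Trem2 (0.17) and Cd200r1 (0.18). For Lgals8 they were the DNA polymerase subunit Pold4 (0.04), Tmed3 (0.06), the heme oxygenase Hmox1 (0.07) and Smim14 (0.08). The measure covers 4 points per gene, and the points share arrays and their normalization. Cd200r1 lay above the floor in osteoblasts alone, at 6.74. Gm2a, Slc7a8, Abca1, Lipo3 and AB124611 lay under the floor in MSC without bFGF. Lipo3, AB124611, Fli1 and Rtp4 lay under it in ES cells. Parts of these profiles are therefore levels under the floor.

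Galectins act through glycoprotein partners, and of 35 listed partners, 27 of them above the floor, 4 were 2-fold or more higher in MSC with than without bFGF and 0 were lower, beside 4.09% and 0.467% of all genes. These were the leukocyte phosphatase Ptprc (CD45), a counter-receptor of galectin-1, at 9.40 against 6.08, the integrin chain Itgam at 9.77 against 6.61, Trem2 at 8.38 against 6.91 and the leukocyte sialomucin Spn at 7.13 against 5.86. Ptprc and Spn lay under the floor without bFGF. All 4 are leukocyte genes, and Ptprc and Itgam are also in the macrophage list. Mertk and Tlr4, partners also found on macrophages, were not higher with bFGF. They stood at 6.35 against 7.08 and at 8.97 against 9.08. By sign alone, 16 of the 35 partners were higher with bFGF and 19 lower. The median over the 35 was -0.03, against -0.06 over all genes.

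Other partners did not reach 2-fold between the MSC arrays, apart from Itga1, which was under the floor in both. The lysosomal glycoprotein Lamp1 stood at 11.69 with bFGF against 11.80 without it, the integrin chain Itgb1 at 10.67 against 10.82, and the amino acid transporter heavy chain Slc3a2 (CD98) at 11.97 against 12.15. The adhesion molecule Alcam was at 9.14 against 8.53 and the fibronectin receptor chain Itga5 at 8.87 against 8.36. Of the matrix partners, fibronectin (Fn1) was at 12.46 against 13.00, the laminin chain Lamb1 at 10.44 against 11.25 and the laminin chain Lamc1 at 8.65 against 8.45. Havcr2, the gene for Tim-3, was just above the floor in MSC with bFGF at 6.69, under it in MSC without bFGF at 6.06, and at 7.75 in osteoblasts.

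Against osteoblasts 29 partners entered each comparison. In MSC with bFGF 6 were lower and 0 higher, beside 9.71% and 7.5% of all genes, and in MSC without bFGF 10 were lower and 2 higher, beside 13.3% and 8.17%; the 2 higher are near that background. The largest differences were of the collagen-binding integrin chain Itga1 (4.25 against 7.26), the growth factor receptor Egfr (-2.52) and the adhesion molecule Mcam (-2.16) in MSC with bFGF, and of Itgam (-4.09), Ptprc (-3.68) and Trem2 (-2.68) in MSC without bFGF. Itga1 and Egfr lay under the floor in MSC with bFGF, and Ptprc in MSC without it. Tlr4, the endotoxin receptor, and the transferrin receptor Tfrc were the 2 higher in MSC without bFGF, by 1.01 and 1.00. In osteoblasts minus ES cells 10 of 31 were higher and 3 lower, the lower share being near the 8.83% of all genes and the higher one beside 12.3%. They were led by Ptprc (3.75), Itgam (3.32) and Tlr4 (3.04), with Lama1 (-1.20), Itgb3 (-1.13) and Tfrc (-1.09) lower. Ptprc and Tlr4 lay under the floor in ES cells, and Lama1 in osteoblasts.

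Enzymes that build the galactose-bearing glycan branches to which galectins bind showed 3 of 21 measured genes, 16 of them above the floor, 2-fold or more higher in MSC with than without bFGF and 0 lower, beside 4.09% and 0.467% of all genes. Gcnt1, which branches O-glycans, stood at 7.20 with bFGF against 5.16 without it, the mannose-trimming enzyme Man1a at 9.30 against 7.26, and the N-glycan branching enzyme Mgat4a at 6.38 against 4.62. Gcnt1 and Mgat4a were under the floor without bFGF, and Mgat4a was only just above it with bFGF. Mgat5, whose N-glycan branch carries preferred galectin-3 ligands, was at 8.07 against 7.38, and B3gnt2, which starts the repeated extensions, at 7.93 against 7.42, both under 2-fold. The galactosyltransferase B4galt1 was at 9.60 against 9.51. The list median was 0.11.

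Against osteoblasts 19 enzymes entered each comparison. In MSC with bFGF 4 were lower and 1 higher, beside 9.71% and 7.5% of all genes, the 1 higher being near that background, and in MSC without bFGF 8 were lower and 0 higher, beside 13.3% and 8.17%. In MSC with bFGF B3gnt3 (-1.53), B3gnt8 (-1.11) and Gcnt1 (-1.10) were lower and B4galt3 (1.19) higher. B3gnt3 and B3gnt8 lay under the floor in MSC with bFGF. In MSC without bFGF the largest differences were those of Gcnt1 (-3.15), Man1a (-2.05) and Mgat4a (-1.92). In osteoblasts minus ES cells 7 of 21 were higher and 1 lower, beside 12.3% and 8.83% of all genes. Those higher included Man1a (1.56), Gcnt1 (1.39) and B3gnt3 (1.39), and B3gnt3 lay under the floor in ES cells.

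Sialic acid added to galactose can block galectins, depending on its linkage, and of 12 sialyltransferase genes, 9 of them above the floor, 1 was 2-fold or more higher with bFGF and 0 lower, a single gene beside a background of 4.09% higher and 0.467% lower. It was St3gal6, at 8.83 in MSC with bFGF against 6.28 without it, just under the floor of 6.29 there. St6gal1, whose linkage hinders galectin-1, stood at 6.37 against 6.13, and at 7.99 in osteoblasts and 7.46 in ES cells. Against osteoblasts it differed by -1.62 in MSC with bFGF and by -1.85 in MSC without, and St3gal5 by -1.16 and -1.75 in the same order. St8sia4 was also 2-fold lower in both MSC cultures than in osteoblasts, while St3gal4 was 1.58 higher in MSC without bFGF. St8sia4 in both MSC cultures and St6gal1 in MSC without bFGF lay under the floor. St3gal6 was 2.78 higher in MSC with bFGF than in osteoblasts, where it was under the floor. These are 3 lower and 1 higher in each comparison, of 10 genes with bFGF and 9 without. The shares over all genes were 9.71% lower and 7.5% higher with bFGF, and 13.3% and 8.17% without it. In osteoblasts minus ES cells 2 of 10 were higher, St8sia4 (1.64) and St3gal5 (1.53), and St3gal6 was lower (-1.31), beside 12.3% and 8.83% of all genes. St8sia4 lay under the floor in ES cells.

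**Figure D4:**
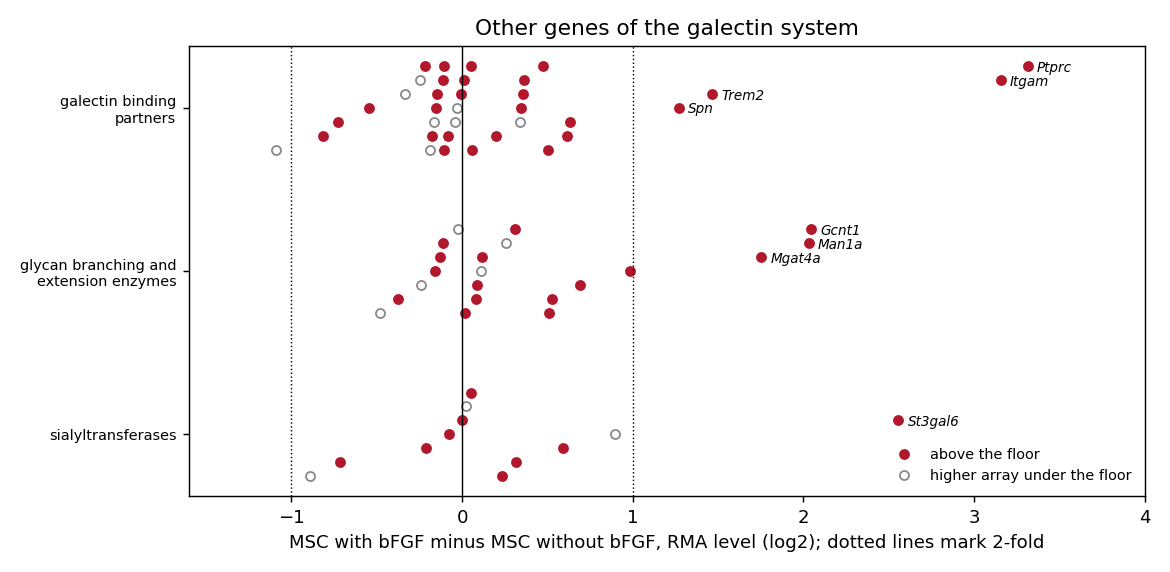
Log2 differences for MSC with minus without bFGF (horizontal axis) of 35 galectin binding partners, 21 glycan enzymes and 12 sialyltransferases, 1 point per gene, spread vertically for legibility, with dotted lines at 2-fold. Filled points lie above the floor; 4, 3 and 1 of them in these lists pass 2-fold and all 8 lie on the side of MSC with bFGF.

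Lgals9 and Lgals3bp are known interferon-induced genes, so the interferon response list was set beside them. Of its 20 measured genes, 16 of them above the floor, 3 were 2-fold or more higher in MSC with than without bFGF and 0 lower, beside 4.09% and 0.467% of all genes. They were the RNA sensor Ifih1 (1.70), the interferon regulatory factor Irf7 (1.63) and Oasl1 (1.02), beside 1.62 for Lgals9 and 1.02 for Lgals3bp. The list median was 0.45 over all its genes and 0.65 over those above the floor. In osteoblasts minus ES cells 16 of 18 above the floor were higher and 0 lower, beside 12.3% and 8.83% of all genes, with a median of 1.54, where Lgals9 and Lgals3bp stood at 2.60 and 2.90. In MSC without bFGF minus ES cells the median was 0.03, beside -0.06 for Lgals9 and 0.57 for Lgals3bp. The macrophage medians in these 3 comparisons were 2.69, 3.35 and -0.60. In MSC with bFGF minus ES cells the interferon and macrophage medians were 0.75 and 1.88, beside 1.57 for Lgals9 and 1.58 for Lgals3bp. In MSC with bFGF minus osteoblasts the medians were -0.87 and -1.26, beside -1.03 and -1.31 for these genes. For MSC without bFGF minus osteoblasts they were -1.41 and -4.02, beside -2.65 and -2.33. The part of either list in these differences was not tested.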

How the data were processed

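RNA from 4 mouse cell cultures was measured with 1 array each. Per the submitters' processing notes, the deposited levels come from RMA in Affymetrix Expression Console; the log2 scale of the deposited values was inferred from their range of 1.40 to 14.28, and software versions and genome build were not given in the sources used here. RMA makes array distributions alike, so a general change of RNA per cell would not show.

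Of 35556 probe sets 21789 had 1 gene symbol in the platform annotation, 1621 several and 12146 none. Each of 19938 genes took its probe set with the highest mean. Differences of log2 levels were counted at 2-fold where the higher array lay above its floor. No test between groups was possible. Promoter windows came from RefSeq (GRCm38.p6). The counting step was tested on simulated data. Alternatives were averaging over probe sets, other floors and thresholds, centring, a loess curve and repeated quantile normalization. Named genes were the 7 members, their relatives on the array, the largest differences past 2-fold in each list and the nearest profiles; other list members are given to show their role and were chosen after their values were seen. Of 24 listed interferon genes 20, of 22 glycan enzymes 21, of 10 osteoblast markers 7 and of 10 MSC markers 9 were measured. Lists of fibroblast, epithelial, endothelial and erythroid markers were also measured. Members and lists were chosen with earlier results of these data known. Software comprised numpy 2.4.6, statsmodels 0.14.6, pandas 2.3.3, matplotlib 3.10.9 and scipy 1.17.1 under Python 3.11.15.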

Additional observations from a re-analysis of the deposited data

How the results depend on the processing

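Each of the 7 genes had 1 probe set, so averaging probe sets changed 0 of their differences. Of the counts past 2-fold, only those under a threshold of 4-fold moved by over 1.5 times: the number of the 7 genes was then 0 for MSC with minus without bFGF, 0 for MSC with bFGF minus osteoblasts, 0 for each MSC culture minus ES cells and 2, Lgals9 and Lgals3bp, for osteoblasts minus ES cells, while it was 3 for MSC without bFGF minus osteoblasts. That follows from the stricter threshold; Lgals3 at 1.97 between the MSC cultures lies just under it. With no floor, a floor at the 75th percentile, a threshold of 1.5-fold, centring, a loess curve removed or repeated quantile normalization the number past the threshold, higher and lower together, was within 1.5 times; at 1.5-fold Lgals1 joined the genes higher in each MSC culture than in ES cells, making 4 for MSC with bFGF and 2 for MSC without it. Repeated scaling moved a difference by at most 0.20, and the sign turned for 3 differences that were not past 2-fold: Lgals8 against osteoblasts with a loess curve removed (-0.03 in both MSC cultures) and Lgals9 in MSC without bFGF minus ES cells with repeated quantile normalization (0.03). For MSC with bFGF minus ES cells the split over all genes, 1236 higher and 1156 lower, turned to 1006 and 1336 with centring, 1037 and 1262 with a loess curve removed, 1141 and 1192 with repeated quantile normalization and 1378 and 1441 with no floor. No paired analysis was possible because each group has 1 array. Over all genes, the counts for MSC with minus without bFGF were 429 higher and 49 lower, and became 521 and 189 with no floor, 172 and 17 with a floor at the 75th percentile, 781 and 350 at 1.5-fold and 160 and 1 at 4-fold. The same stricter floor and both thresholds moved the counts of the other 5 comparisons by over 1.5 times, by construction, except the genes higher in MSC without bFGF than in ES cells under that floor (767, beside 1139): against osteoblasts, 4-fold left 115 higher and 324 lower of 810 and 1049 in MSC with bFGF, and 124 and 588 of 896 and 1454 in MSC without. No spread between cultures was measured for differences near 2-fold, such as those of Lgals3bp between the MSC cultures and of Lgals9 between MSC with bFGF and osteoblasts.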

Other observations

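Some genes of the galectin system did not follow the order of Lgals3. St3gal6 was highest in MSC with bFGF, at 8.83, against 6.28 in MSC without bFGF, 6.06 in osteoblasts and 7.36 in ES cells, whereas macrophage markers were highest in osteoblasts, with a median level of 10.97 there and of 9.34 in MSC with bFGF. St3gal6 lay above the floor in MSC with bFGF and in ES cells only. Tlr4 was similar in both MSC cultures, at 8.97 with bFGF and 9.08 without it, and lower in osteoblasts (8.07) and ES cells (5.03). B3gnt5, which starts a class of glycolipids, lay above the floor in ES cells alone, at 7.64, with 4.66 in MSC with bFGF, 5.14 in MSC without bFGF and 4.36 in osteoblasts. Of 13 measured fibroblast and matrix markers 9 were above the floor for MSC with minus without bFGF. Of these 0 were 2-fold or more higher and 3 lower, beside 4.09% and 0.467% of all genes. Epithelial markers, 9 of 10 above the floor in ES cells and 1 of 10 in each other array, did not come with signal for Lgals4, which was at 4.66 in ES cells. Of 8 endothelial and 4 measured erythroid markers at most 2 and 1 lay above the floor in any array.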
